A study of Homo sapiens with 16 samples.

Results

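The genes described here build the melanosome, the organelle of pigment cells in which melanin is made. The list has 10 genes, namely TYR, TYRP1, DCT, PMEL, MLANA, SLC24A5, SLC45A2, OCA2, GPR143 and RAB27A. Each was represented by the row of the expression table that carried its symbol alone, and by the row with the highest mean over all arrays where it had several. Of the 10 genes, 9 had such a row, out of 18417 genes in the table. DCT, the dopachrome tautomerase of the pathway, was not analysed here.

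RNA of 4 groups was measured, with 4 Affymetrix Human Gene 1.0 ST arrays each. A7 and G10 are clones of A375, an amelanotic human melanoma cell line, that were stably transfected with pcDNA3 carrying human catalase cDNA. PCDNA3 denotes A375 cells with the empty vector, and A375 the cells that were not transfected. Transfectants were selected in 1500 µg/ml geneticin and grown in 700 µg/ml, so A7, G10 and PCDNA3 had geneticin and A375 had none. A7 and G10 are each a single clone, so catalase transfection and the history of a clone cannot be told apart. The arrays of a group are labelled as biological replicates. Nothing says how they were separated, and the p values below measure only the spread between these arrays.

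Values are log2 intensities, and differences between groups are log2 fold changes from limma, fitted over all 16 arrays with Benjamini-Hochberg adjustment over 33297 transcript clusters. A change was called at an adjusted p under 0.05. Control denotes the average of the PCDNA3 and A375 means, over 8 arrays. The olfactory receptor genes, which cells outside the nose hardly transcribe, had a 95th percentile of 5.18, taken as the level of unexpressed genes. For a comparison with 1 mean under 5.18, the change is also given as at least the difference that remains when each array of that side is raised to 5.18.

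Array medians lay between 5.85 and 5.97. Of the 16 arrays, G10 arrays 3 and 4 stood apart over all clusters, with array weights of 0.387 and 0.457, the lowest of all. Where leaving out both of these arrays, a choice made after the data were seen, changed a call or a called value by over 1.5 times in a result described here, the value without them is also given. CAT, the transfected gene, had values of 9.02, 8.92, 9.12 and 9.02 on the arrays labelled A7, and of 8.51, 8.55, 7.74 and 8.27 on the arrays labelled G10, against 8.51, 8.51, 8.53 and 8.71 in PCDNA3 cells and 8.64, 9.03, 8.65 and 8.62 in A375 cells. CAT changed by 0.37 in A7 (adjusted p = 0.124) and by -0.38 in G10 (adjusted p = 0.0526) against control, and neither was called. It was called lower in G10 than in A7 (-0.75, adjusted p = 0.00221) and than in A375 cells (-0.47, adjusted p = 0.0480). With G10 arrays 3 and 4 left out, CAT was called higher in A7 against control (limma adjusted p = 0.0128). It was then lower in G10 than in A7 by 0.49 (adjusted p = 0.0088). Without these arrays CAT was also called higher in A7 than in PCDNA3 cells, and was no longer called in G10 against A375 cells. Whether the probes of CAT lie within the transfected cDNA was not known, so CAT does not check the labels of the clones. Of 13 marker genes of melanoma and melanocyte lines, 13 lay above the unexpressed level in A7, G10 and PCDNA3 and 12 in A375. Of the markers of other cell types, 2 of 8 for keratinocytes, 3 of 5 for epithelium (with KRT18 at 10.3 to 10.6), 6 of 7 for fibroblasts, 1 of 5 for blood (CD68) and 1 of 4 for endothelium (KDR) lay above it in every group. EPCAM, PTPRC and PECAM1 lay below it in every group, and the part of other cells in the results was not tested.

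Melanin is made from tyrosine by tyrosinase and its relatives within melanosomes. These organelles mature around a fibrous sheet of PMEL protein, need ion transporters that set their calcium and pH, and are carried along actin to the cell periphery by the RAB27A, MLPH and MYO5A complex. The transcription factor MITF drives many of these genes, and binds E-boxes with the core CATGTG.

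In A7, 5 of the 9 measured genes were higher than in control and none was lower, namely TYR, TYRP1, MLANA, SLC45A2 and GPR143. Of all clusters, 5.69% were called in that comparison, 3.46% as higher and 2.23% as lower. In G10, 2 genes were higher (TYRP1 and PMEL) and 3 were lower (SLC24A5, GPR143 and RAB27A), where 17.8% of all clusters were called, 9.92% as higher and 7.9% as lower. When G10 was set against A7, 6 genes were lower by limma and 0 higher (1, PMEL, at an unadjusted p under 0.05), where 15.2% of all clusters were called, 7.83% as higher and 7.38% as lower. The median log2 fold change of the 9 genes was 0.81 in A7, 0.13 in G10 and -0.78 in G10 against A7, and the medians of all clusters were -0.02, -0.04 and -0.01. The clones share their control arrays. In A7 the log2 fold changes of all 9 genes against control lay above 0, and in 6 genes every A7 array lay above every control array, as in 3.5% of all clusters. In G10 every array lay above every control array in TYRP1 (5.96% of all clusters) and below in SLC24A5 and GPR143 (4.35%). Every G10 array lay below every A7 array in 5 genes (8.48%) and above in PMEL (8.89%).

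**Figure D1:**
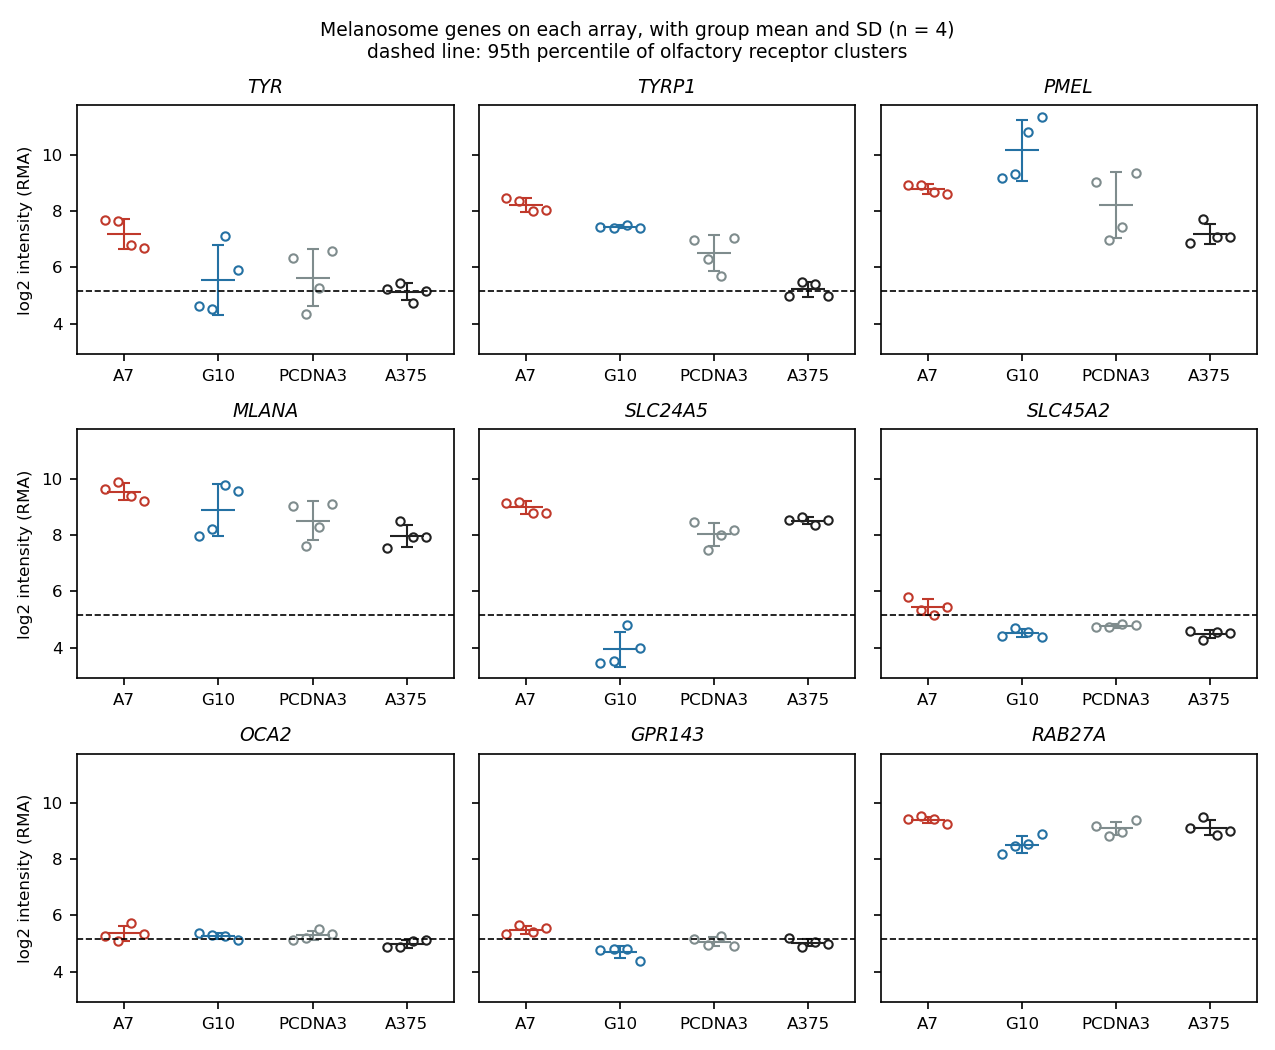
Log2 intensity of the 9 measured melanosome genes on each array (points), with the mean and SD of each group (bars, n = 4), in A7, G10, PCDNA3 and A375. The dashed line is the level of unexpressed genes, 5.18. SLC24A5 lies below the line on all 4 G10 arrays, TYRP1 differs in mean between all 4 groups, and PMEL is highest in G10.

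TYR encodes tyrosinase, the copper enzyme that starts melanin synthesis. The A7 arrays had 7.66, 7.65, 6.78 and 6.68, and the G10 arrays 4.64, 4.51, 7.13 and 5.92, against 6.33, 4.36, 5.28 and 6.58 in PCDNA3 cells and 5.23, 5.44, 4.74 and 5.16 in A375 cells. Every A7 array was above every control array, whereas the G10 and PCDNA3 arrays each held values above and below the unexpressed level. TYR rose in A7 by 1.81 against control (standard error 0.46, limma adjusted p = 0.0299), a 3.49-fold change. The rise was 2.05, and at least 1.94, against A375 cells (adjusted p = 0.0407) and 1.56 against PCDNA3 cells, where it was not called (adjusted p = 0.126). In G10 the change was 0.16 against control, with a 95% interval from -0.82 to 1.14 (adjusted p = 0.879). TYR had a lower level in G10 than in A7, by 1.65 (adjusted p = 0.0486), although G10 array 3 lay above the lowest A7 arrays. When G10 arrays 3 and 4 were left out, the difference from A7 was -2.62 (adjusted p = 0.00169), the rise in A7 was also called against PCDNA3 cells (adjusted p = 0.0284), and the change in G10 against control was -0.81 (adjusted p = 0.260). The call of TYR in A7 against control was lost without A7 array 1, 2 or 3, PCDNA3 array 3 or A375 array 3 (adjusted p of 0.0522 to 0.118), and that against A375 cells without any A7 or A375 array (up to 0.123). The call in G10 against A7 held only without PCDNA3 array 2 or 4 or G10 array 3, and was lost without each of the 13 others (up to 0.153). A further row of TYR gave a rise in A7 of at least 1.44 against control (measured 1.83, limma adjusted p = 0.0122). In that row the A7 and control arrays overlapped, and the rise of 1.31 against PCDNA3 cells was not called (adjusted p = 0.141). Its level in G10 was below that in A7 by at least 1.32 (measured -1.79, adjusted p = 0.0143). The pseudogene TYRL resembles part of TYR, and probes shared with it could not be told apart.

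TYRP1 encodes tyrosinase-related protein 1, which acts late in the synthesis of the brown-black eumelanin and stabilizes tyrosinase. The study selected TYRP1 on these arrays for a rise in A7, so that rise is not independent evidence. The A7 arrays had 8.47, 8.35, 8.001 and 8.03, and the G10 arrays 7.44, 7.40, 7.51 and 7.41, against 6.96, 6.31, 5.69 and 7.05 in PCDNA3 cells and 4.99, 5.49, 5.41 and 5.00 in A375 cells. The means ran from 8.21 ± 0.24 in A7 through 7.44 ± 0.05 in G10 and 6.50 ± 0.63 in PCDNA3 cells to 5.22 ± 0.26 in A375 cells (SD, n = 4 each), and no array of a group overlapped with those of its neighbour. TYRP1 rose by 2.35 in A7 (standard error 0.20, limma adjusted p = 2.33e-06) and by 1.58 in G10 (standard error 0.20, adjusted p = 4.43e-05) against control. It had a lower level in G10 than in A7, by 0.77 (adjusted p = 0.0334), a call lost without A7 array 1 or 2 or any G10 array (adjusted p up to 0.102), and without G10 arrays 3 and 4 together (adjusted p = 0.0953). It was the only gene of the 9 called between the control lines, with PCDNA3 cells above A375 cells by 1.28 (adjusted p = 0.0432), where 0.123% of all clusters were called, 0.045% as higher and 0.0781% as lower. The rise in A7 was therefore 2.99 against A375 cells and 1.71 against PCDNA3 cells, and that in G10 was 2.22 and 0.94, all of which were called. The call between PCDNA3 and A375 cells held only without PCDNA3 array 3, G10 array 3 or G10 array 4, and was lost without each of the 13 others (adjusted p up to 0.145). With G10 arrays 3 and 4 left out together, TYRP1 was again the only gene of the 9 called between the control lines. In that setting 4.06% of all clusters were called, 661 as higher and 690 as lower, so the lines then differed in far more clusters.

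The E-box core CATGTG was searched on both strands in the 250 bases before the annotated start of each gene in the RefSeq promoters of GRCh38.p14. It was present in 9.42% of 35116 promoters and occurred at least 2 times in 1.15%. Promoters were listed for 8 of the 10 genes, and 6 of these had the core in at least 1 promoter. DCT had 2 promoters and RAB27A 5, so this count by gene cannot be set against the share by promoter. TYR and TYRP1 each had 2 matches, as did GPR143 and 1 promoter of DCT. MLANA, which rose in A7 as TYR and TYRP1 did, had none, and a link of matches with changes was not tested. In TYR the matches began 104 and 12 bases before the start, and in TYRP1 144 and 11 bases before it. One match of each gene had a T in front of the core, TCATGTG, a longer motif present in 2.52% of promoters. The promoters are shown 5′ to 3′ along each gene, because both genes share the place of a match close to the start, with the matches in capitals (CACATG is the core on the opposite strand).
TYR (chr11:89177625-89177874, + strand): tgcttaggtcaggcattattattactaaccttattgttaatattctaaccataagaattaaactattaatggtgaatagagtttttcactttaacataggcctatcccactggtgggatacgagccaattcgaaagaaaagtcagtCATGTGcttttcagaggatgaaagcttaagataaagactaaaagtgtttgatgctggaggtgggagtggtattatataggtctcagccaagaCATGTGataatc
TYRP1 (chr9:12693135-12693384, + strand): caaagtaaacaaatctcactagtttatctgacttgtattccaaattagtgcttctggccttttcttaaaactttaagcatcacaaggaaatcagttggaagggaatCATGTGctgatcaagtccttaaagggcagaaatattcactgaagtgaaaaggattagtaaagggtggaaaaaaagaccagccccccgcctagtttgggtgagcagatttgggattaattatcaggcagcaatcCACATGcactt

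PMEL encodes the protein whose amyloid fibrils give the early melanosome its striped sheet. Its mean was higher in G10 than in the other groups. The G10 arrays had 9.16, 9.30, 10.82 and 11.34, and the A7 arrays 8.94, 8.93, 8.67 and 8.60, against 9.04, 6.98, 7.44 and 9.35 in PCDNA3 cells and 6.87, 7.71, 7.08 and 7.07 in A375 cells. All G10 arrays lay above those of A7 and A375, but PCDNA3 array 4 lay above the lowest G10 arrays. PMEL rose in G10 by 2.46 against control (standard error 0.45, limma adjusted p = 0.000939), by 2.97 against A375 cells (adjusted p = 0.000933) and by 1.95 against PCDNA3 cells (adjusted p = 0.0164). Without G10 arrays 3 and 4 the rise was 1.54 against control (adjusted p = 0.0306) and 1.03 against PCDNA3 cells, where it was no longer called (adjusted p = 0.204). The call against PCDNA3 cells was also lost without PCDNA3 array 2 or 3 (adjusted p up to 0.0590). In A7 the change was 1.09 (95% interval from 0.14 to 2.04, adjusted p = 0.208). The difference of 1.37 between G10 and A7 was not called (adjusted p = 0.0927), except without G10 array 1 (adjusted p = 0.0437), and it was 0.44 without G10 arrays 3 and 4 (adjusted p = 0.693). Without both of them the rise in A7 was called against A375 cells (adjusted p = 0.0351).

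MLANA, or MART-1, encodes a small melanosomal membrane protein that helps PMEL to mature. The A7 arrays had 9.65, 9.89, 9.38 and 9.20, and the G10 arrays 7.96, 8.21, 9.78 and 9.57, against 9.04, 7.63, 8.28 and 9.09 in PCDNA3 cells and 7.54, 8.49, 7.92 and 7.92 in A375 cells. Each A7 array was above each control array, by a small margin over the highest PCDNA3 arrays. MLANA rose in A7 by 1.29 against control (standard error 0.34, limma adjusted p = 0.0358), a 2.45-fold change. The rise was called against A375 cells (1.56, adjusted p = 0.0343), but not against PCDNA3 cells (1.02, adjusted p = 0.187). The call against control was lost without any A7 array, PCDNA3 array 2 or 3, or any A375 array but the second (adjusted p up to 0.125), and that against A375 cells without A7 array 1, 2 or 3 or any A375 array but the second (up to 0.108). In G10 the change was 0.65 (95% interval from -0.08 to 1.37, adjusted p = 0.242), and it was -0.15 without G10 arrays 3 and 4 (adjusted p = 0.839). The difference between G10 and A7 was -0.65 (adjusted p = 0.353), and without these arrays it was -1.44 and called (adjusted p = 0.0109), as was the rise in A7 against PCDNA3 cells (adjusted p = 0.0467). The RefSeq promoter of MLANA held no CATGTG.

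SLC24A5 encodes a potassium-dependent sodium-calcium exchanger that melanin synthesis needs. It showed the largest change of the 9 genes. The G10 arrays had 3.45, 3.53, 4.81 and 3.98, and the A7 arrays 9.15, 9.19, 8.79 and 8.79, against 8.46, 7.48, 8.003 and 8.17 in PCDNA3 cells and 8.54, 8.63, 8.35 and 8.52 in A375 cells. No G10 array reached the level of unexpressed genes, and every other array was far above it. SLC24A5 fell in G10 by at least 3.09 against control (measured -4.33, standard error 0.22, limma adjusted p = 1.47e-09). The fall was at least 3.33 against A375 cells, at least 2.85 against PCDNA3 cells and at least 3.80 against A7 (measured -5.04, adjusted p = 1.28e-09). In A7 the change against control was 0.71 (adjusted p = 0.0724), with each A7 array above each control array, and it was called without PCDNA3 array 1 (adjusted p = 0.0498), without G10 array 3 (adjusted p = 0.0124) and without G10 arrays 3 and 4 together (adjusted p = 0.00772). The change was called against PCDNA3 cells alone (0.95, adjusted p = 0.0405) and not against A375 cells alone (0.47, adjusted p = 0.382), and the call against PCDNA3 cells was lost without any A7 array, any A375 array or any PCDNA3 array but the first (adjusted p up to 0.134). The promoter of SLC24A5 is shown because SLC24A5 showed the largest change, and its single match began 15 bases before the start. That match was also one of the longer motif TCATGTG.
SLC24A5 (chr15:48120740-48120989, + strand): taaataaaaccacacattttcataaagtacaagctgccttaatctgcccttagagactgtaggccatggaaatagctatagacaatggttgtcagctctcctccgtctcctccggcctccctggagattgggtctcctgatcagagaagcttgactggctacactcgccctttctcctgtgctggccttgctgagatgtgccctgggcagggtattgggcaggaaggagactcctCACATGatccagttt

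SLC45A2 and OCA2 encode melanosomal membrane proteins that control the pH in which tyrosinase works. SLC45A2 had values of 5.82, 5.33, 5.16 and 5.44 in A7 and of 4.42, 4.70, 4.55 and 4.39 in G10, against 4.72, 4.73, 4.85 and 4.79 in PCDNA3 cells and 4.59, 4.28, 4.57 and 4.52 in A375 cells. A7 was the only group whose mean passed the unexpressed level, and it did so by little. SLC45A2 rose in A7 by at least 0.26 against control (measured 0.81, limma adjusted p = 0.000222), and its level in G10 was below that in A7 by at least 0.26 (measured -0.92, adjusted p = 7.66e-05). OCA2 had means of 5.36 in A7, 5.27 in G10, 5.29 in PCDNA3 cells and 4.99 in A375 cells. OCA2 was called in none of the 8 comparisons, and its change against control was 0.22 in A7 (95% interval from -0.01 to 0.45) and 0.13 in G10 (95% interval from -0.10 to 0.36).

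GPR143 encodes a receptor of the melanosome membrane that regulates the size of the organelle and is lost in ocular albinism. The A7 arrays had 5.33, 5.65, 5.42 and 5.57, and the G10 arrays 4.79, 4.82, 4.81 and 4.40, against 5.17, 4.96, 5.27 and 4.90 in PCDNA3 cells and 5.19, 4.89, 5.07 and 4.99 in A375 cells. The A7 arrays lay above all others, close to the unexpressed level, and the G10 arrays below all others. GPR143 rose in A7 by at least 0.30 (measured 0.44, limma adjusted p = 0.0182), which was called against A375 cells (adjusted p = 0.0390) and not against PCDNA3 cells (adjusted p = 0.0570). The call against control was lost without A7 array 2 or 4 (adjusted p up to 0.0790), and that against A375 cells without any A7 or A375 array but the first of each (up to 0.113). Against PCDNA3 cells a call was made without PCDNA3 array 3 or G10 array 4 (adjusted p down to 0.0287), and without G10 arrays 3 and 4 together (adjusted p = 0.0222). It was called lower in G10 (adjusted p = 0.0254), where both sides lay below the unexpressed level and no size is given. In G10 it was not called against A375 cells (adjusted p = 0.0791), and the call against PCDNA3 cells (adjusted p = 0.0447) was lost without any of 10 of the 16 arrays (adjusted p up to 0.137). The call in G10 against control was lost without G10 array 4 (limma adjusted p = 0.106) and without G10 arrays 3 and 4 together (adjusted p = 0.161). It was also lost with arrays rescaled by quantiles (adjusted p = 0.0623) or by their medians (adjusted p = 0.0509). The promoter of GPR143 is shown because it held 2 matches of the longer motif TCATGTG, whose cores, in capitals, began 61 and 33 bases before the start. At least 2 such matches occurred in 0.0683% of promoters.
GPR143 (chrX:9765848-9766097, - strand): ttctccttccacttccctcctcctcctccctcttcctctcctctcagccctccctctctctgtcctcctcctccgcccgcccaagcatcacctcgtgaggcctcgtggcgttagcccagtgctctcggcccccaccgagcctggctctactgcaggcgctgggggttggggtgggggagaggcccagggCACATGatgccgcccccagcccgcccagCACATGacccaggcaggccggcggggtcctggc

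RAB27A encodes the small GTPase that couples mature melanosomes to the myosin motor. The G10 arrays had 8.18, 8.46, 8.53 and 8.88, and the A7 arrays 9.41, 9.51, 9.43 and 9.25, against 9.16, 8.82, 8.97 and 9.39 in PCDNA3 cells and 9.12, 9.51, 8.86 and 9.0002 in A375 cells. RAB27A fell in G10 by 0.59 against control (standard error 0.14, limma adjusted p = 0.00694), by 0.61 against A375 cells and by 0.57 against PCDNA3 cells, all of which were called, with 1 G10 array inside the range of the controls. The call against A375 cells was lost without A375 array 2 or G10 array 1 (adjusted p up to 0.0602), and that against PCDNA3 cells without PCDNA3 array 1 or 4 or G10 array 1 or 2 (up to 0.0811). It had a lower level in G10 than in A7, by 0.89 (adjusted p = 0.00108), without overlap. In A7 the change was 0.30 (adjusted p = 0.288).

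**Figure D2:**
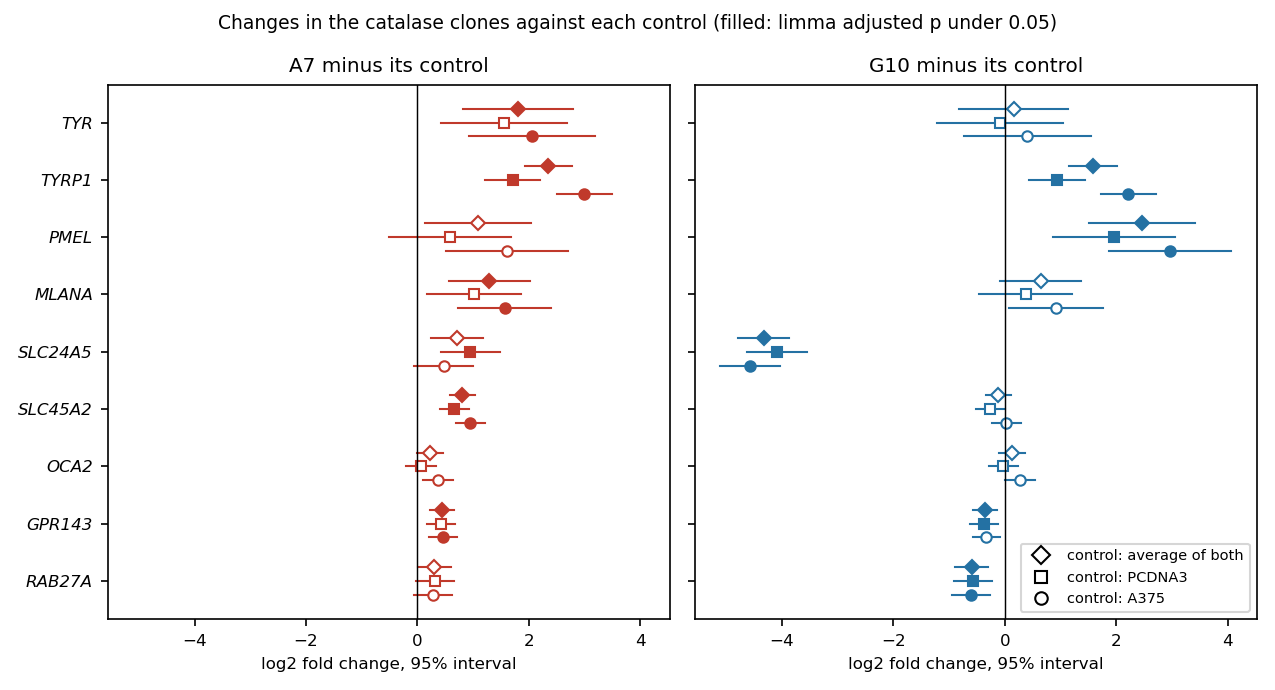
Log2 fold changes of the 9 genes in A7 (left) and G10 (right) against the average of both control lines, PCDNA3 cells and A375 cells, with 95% intervals. Filled symbols mark a limma adjusted p under 0.05. TYRP1, the gene with the clearest rise in A7 at 2.35 against control, is filled against each control in both clones, and SLC24A5 stands at -4.33 in G10.

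With all arrays, the choice of control line changed the calls. In A7, 5 genes were higher than in A375 cells (4.17% of all clusters called, 2.47% as higher and 1.69% as lower) and 3 were higher than in PCDNA3 cells (4.72% called, 3.01% as higher and 1.71% as lower), namely TYRP1, SLC24A5 and SLC45A2. In G10, 2 genes were higher and 2 lower than in A375 cells (14.2% called, 8.02% as higher and 6.21% as lower), and 2 were higher and 3 lower than in PCDNA3 cells (15.5% called, 8.44% as higher and 7.01% as lower). TYRP1 was called higher in both clones against either line. Without G10 arrays 3 and 4, the number of genes called in A7 was the same against both lines. It was 6, all higher, against A375 cells (6.9% of all clusters called) and against PCDNA3 cells (8.64% called).

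Within groups, several of these genes varied together. In PCDNA3 cells arrays 1 and 4 were high, and arrays 2 and 3 low, in TYR, MLANA, PMEL and TYRP1. In G10 arrays 3 and 4 were higher than arrays 1 and 2 in TYR, MLANA and PMEL, whereas TYRP1 spanned only 7.40 to 7.51. The same 2 arrays of G10 were lower in MITF, at 9.48 and 9.69 against 10.59 and 10.55 on arrays 1 and 2. In the other groups MITF lay on the same side of its group mean as TYR on every array but A375 array 4. On arrays 1 to 4 MITF differed from that mean by 0.12, -0.20, -0.05 and 0.13 in PCDNA3 cells. These differences were 0.12, 0.09, -0.03 and -0.19 in A7, and 0.11, 0.28, -0.30 and -0.08 in A375 cells. The calcium-binding protein S100B, another marker of melanocytic cells, had 9.74 and 9.99 on G10 arrays 3 and 4 and 11.18 and 11.21 on G10 arrays 1 and 2. S100B was called higher in both clones against control without G10 arrays 3 and 4, by 0.48 in A7 (adjusted p = 0.0139) and 0.94 in G10 (adjusted p = 0.000231). What separated the arrays of a group was not given, and its part in the results was not tested.

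**Figure D3:**
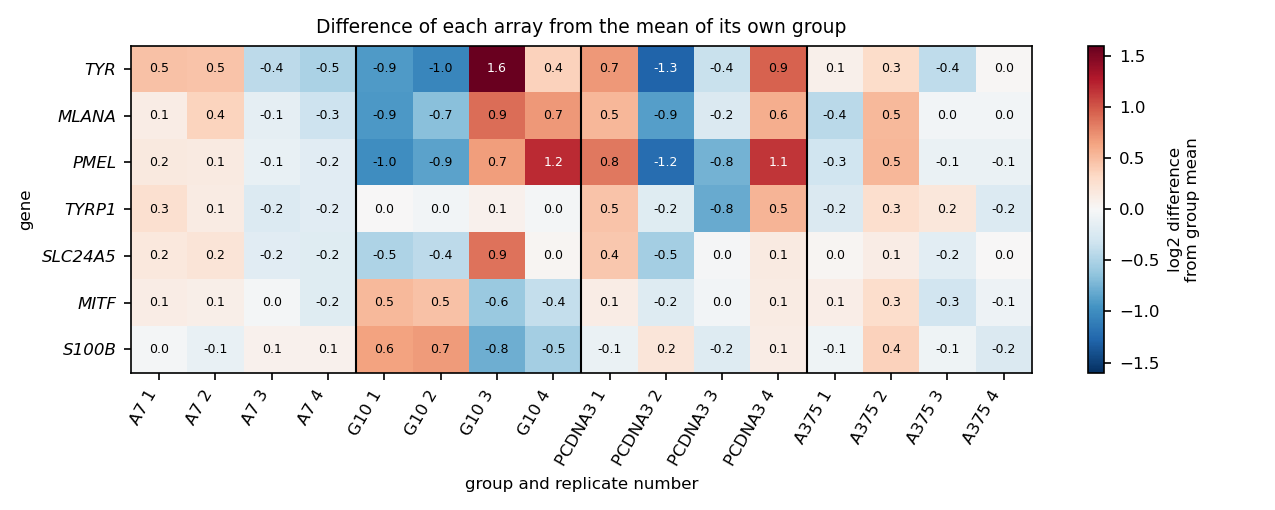
Difference of each array from the mean of its own group in log2 units, for 5 melanosome genes, MITF and S100B (rows), over the arrays of A7, G10, PCDNA3 and A375 (columns). All G10 values of SLC24A5 lie below the unexpressed level. G10 array 3 is 1.58 above the group mean in TYR, and G10 arrays 3 and 4 are below the mean in MITF and S100B.

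MITF, the main transcription factor of pigment cells, and SOX10, which controls MITF, were far above the unexpressed level and were called in no comparison of clones with control or of the clones with each other. MITF had means of 10.56 in A7, 10.08 in G10, 10.09 in PCDNA3 cells and 10.49 in A375 cells. Its change against control was 0.28 in A7 (limma adjusted p = 0.511) and -0.21 in G10 (adjusted p = 0.532). With both G10 arrays 3 and 4 left out, the change of MITF in G10 was 0.28 against control (adjusted p = 0.190), its difference from A7 was 0.0066 (adjusted p = 0.988), and MITF was called higher than in PCDNA3 cells in A7 (0.48, adjusted p = 0.0283) and in G10 (0.48, adjusted p = 0.0341). SOX10 had means of 9.56 in A7, 9.43 in G10, 9.32 in PCDNA3 cells and 9.56 in A375 cells. The change of SOX10 was 0.12 in A7 (adjusted p = 0.611) and -0.01 in G10 (adjusted p = 0.975).

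Around the 9 genes, 7 lists of the wider pathway were counted against the 5.69% of all clusters called in A7 and the 17.8% called in G10. These shares were 8.54% and 21.1% when G10 arrays 3 and 4 were left out. Of 13 genes that carry and secrete melanosomes, 2 rose in A7 (15.4% called), while 1 rose and 3 fell in G10 (30.8% called). SYTL5, a RAB27A-binding synaptotagmin-like protein, rose in A7 by 0.92 (adjusted p = 0.00115) and in G10 by 0.82 (adjusted p = 0.000847), or by 0.49 without G10 arrays 3 and 4 (adjusted p = 0.0224). RAB17, a GTPase of melanosome release, rose in A7 by 0.73 (adjusted p = 0.000709) and lay 1.01 lower in G10 than in A7. MLPH, which links RAB27A to myosin, had 6.78, 6.86, 7.496 and 7.35 in G10 and 8.61, 8.84, 8.22 and 8.17 in A7. MLPH fell in G10 by 0.75 against control (adjusted p = 0.0134) and was lower than in A7 by 1.34 (adjusted p = 0.000641). The myosin gene MYO5A fell in G10 by 0.35 (adjusted p = 0.0375) and was lower than in A7 by 0.53 (adjusted p = 0.00844), and the fall against control was not called without G10 arrays 3 and 4 (-0.27, adjusted p = 0.211). MLPH, MYO5A and RAB27A, the 3 members of the transport complex, were each called lower in G10 than in A7, as were 7.38% of all clusters. MLPH and MYO5A were named here for the size of their change. Of the 13 listed genes, 4 were lower and 0 higher in that comparison (30.8% called, against 15.2% of all clusters). Without G10 arrays 3 and 4, 3 were lower (23.1%, against 19%).

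Of 15 further transporters of melanosomes, 0 were called by limma in A7 after adjustment (5 at an unadjusted p under 0.05), against 5.69% of all clusters, and 4 rose and 1 fell in G10 (33.3%, against 17.8%). In A7, 1 rose without G10 arrays 3 and 4. SLC7A11, which brings cystine into the cell for the red pheomelanin, fell in G10 by 1.04 (adjusted p = 0.0117), with 8.59, 8.62, 10.18 and 10.21 on its arrays. Without G10 arrays 3 and 4, which lay within the range of A7, the fall was 1.84 (adjusted p = 9.35e-07). The zinc transporter gene SLC30A6 rose by 0.91 (adjusted p = 2.84e-07), and the copper pump gene ATP7B by 0.81 (adjusted p = 0.000666).

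Of 30 genes that form lysosome-related organelles, 3 rose in A7 (10%, against 5.69% of all clusters), and 6 rose and 3 fell in G10 (30%, against 17.8%). When G10 arrays 3 and 4 were left out, 5 rose in A7, and 8 rose and 1 fell in G10. In A7 with all arrays these were HPS4 (0.40), VPS33B (0.38) and VPS41 (0.35), which take part in sorting cargo to the organelle. In G10 the kinesin gene KIF13A, which moves cargo vesicles to melanosomes, rose by 1.11 (adjusted p = 0.000107), FIG4, a lipid phosphatase, by 0.90 (adjusted p = 0.00149) and LYST, which sets the size of such organelles, by 0.70 (adjusted p = 0.00254). RAB38, which delivers tyrosinase to melanosomes, had a lower level in G10 than in A7, by 1.07 (adjusted p = 0.00187), or by 0.66 without G10 arrays 3 and 4 (adjusted p = 0.0247). KIF13A was higher in G10 than in A7 by 1.32, and BLOC1S4, a subunit of a sorting complex, was lower by 0.32, a difference not called without G10 arrays 3 and 4 (adjusted p = 0.201).

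A list of 8 genes covered PMEL processing and early melanosomes, so not all of them process PMEL. In A7, 0 were called by limma after adjustment (3 at an unadjusted p under 0.05), against 5.69% of all clusters. In G10, 2 rose and 3 fell (62.5%, against 17.8%). With G10 arrays 3 and 4 left out, 2 rose in A7, and 3 rose and 3 fell in G10. APOE, on which PMEL fibrils are nucleated, rose in G10 by 0.58 (adjusted p = 0.00012). The protease gene ADAM10 fell by 0.56 (adjusted p = 0.00168), or by 0.28 without G10 arrays 3 and 4 (adjusted p = 0.0161), and QPCT, a glutaminyl cyclase, by at least 0.12 (measured -0.99, adjusted p = 1.18e-05). In G10 against A7 the differences were 0.59 for APOE, -0.91 for ADAM10 and at least 0.33 downward for QPCT (measured -1.20).

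Of 20 regulators of melanocytes, 1 fell in A7 (5%, against 5.69% of all clusters), and 4 rose and 3 fell in G10 (35%, against 17.8%). In A7, 1 rose and 1 fell when G10 arrays 3 and 4 were left out. SOX9 fell in A7 by 0.39 (adjusted p = 0.0321). In G10 the related factors TFAP2A and TFAP2B moved in opposite directions. TFAP2A had 8.57, 8.89, 8.42 and 7.97 in G10, against a control mean of 6.67, and rose by 1.79 (adjusted p = 2.82e-07). TFAP2B had 6.56, 6.95, 7.12 and 6.90 in G10, against a control mean of 8.73, and fell by 1.84 (adjusted p = 1.87e-08). ZEB2, a zinc finger factor of the melanocyte lineage, rose in G10 by 0.92 (adjusted p = 4.01e-05). In G10 against A7 the differences were 2.04 for TFAP2A, -1.54 for TFAP2B and 0.86 for ZEB2.

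A list of signalling to pigment cells held 26 genes, namely receptors, ligands and genes that act within the cell. Of these, 1 rose and 1 fell in A7 (7.69%, against 5.69% of all clusters), and 3 rose and 3 fell in G10 (23.1%, against 17.8%). Leaving out G10 arrays 3 and 4 gave 1 rise and 3 falls in A7, and 4 rises and 5 falls in G10. CTNNB1, which encodes the WNT effector β-catenin, rose in A7 by 0.43 (adjusted p = 0.00797), and MC1R, the melanocortin receptor, fell by 0.41 (adjusted p = 0.0224). KITLG, the ligand of KIT, had 4.69, 4.83, 6.24 and 6.06 in G10, against a control mean of 7.52, and fell by 2.06 (adjusted p = 1.54e-05). DKK1, a secreted WNT inhibitor, had 4.41, 3.88, 9.84 and 8.65 in G10, and its rise of at least 1.52 (measured 2.57, adjusted p = 0.0377) rested on G10 arrays 3 and 4, without which the change was 0.02 (adjusted p = 0.964). ADCY1, an adenylyl cyclase, rose in G10 by 1.34 (adjusted p = 9.68e-05). In G10 against A7 the differences were -1.69 for KITLG, 1.18 for ADCY1 and -0.87 for MRAP2, an accessory protein of melanocortin receptors, which was -1.43 without G10 arrays 3 and 4 (adjusted p = 0.000235).

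The last list held 23 other genes, either of melanocyte differentiation or linked to MITF. Of these, 7 rose and 2 fell in A7 (39.1%, against 5.69% of all clusters), while 2 rose and 3 fell in G10 (21.7%, against 17.8%). In G10 against A7, 8 were lower and 2 higher (43.5%, against 15.2%). In G10, 6 rose and 2 fell when arrays 3 and 4 were left out, so rises then outnumbered falls. The membrane glycoprotein gene GPM6B had 8.63, 8.99, 8.39 and 8.33 in A7 and 6.81, 7.20, 7.75 and 7.21 in G10, against a control mean of 7.68. GPM6B rose in A7 by 0.91 (adjusted p = 0.00582), HPGD, which breaks down prostaglandins, by 0.82 (adjusted p = 0.0114) and the sialyltransferase gene ST3GAL6 by 0.82 (adjusted p = 0.000488). In G10, SEMA6A, a semaphorin, fell by 1.24 (adjusted p = 1.51e-05) and GAPDHS by 0.55 (adjusted p = 0.00658), a fall not called without G10 arrays 3 and 4 (adjusted p = 0.141), while RRAGD, a GTPase of lysosomal nutrient sensing, rose by 0.53 (adjusted p = 0.00514). SEMA6A, GPM6B and HPGD were lower in G10 than in A7 by 1.499, 1.34 and 1.06.

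**Figure D4:**
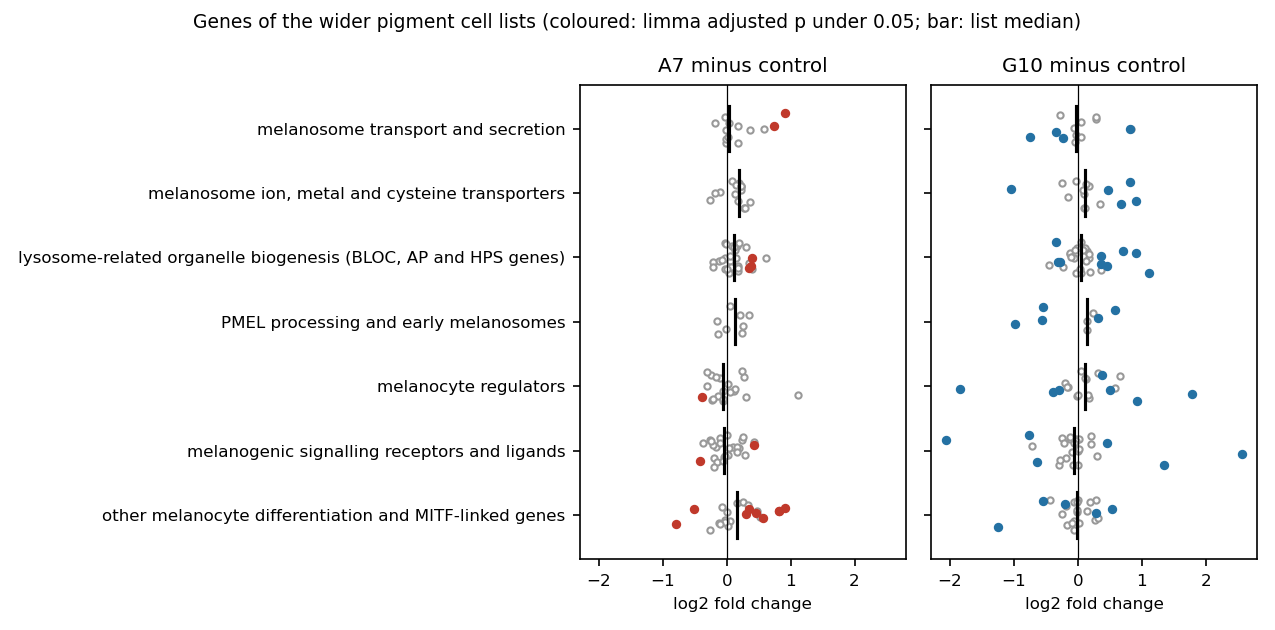
Log2 fold changes against control in A7 (left) and G10 (right) of the genes in the 7 lists above, one point a gene, with coloured points at a limma adjusted p under 0.05 and a bar at the median of each list. List medians lie between -0.05 and 0.19 in A7 and between -0.07 and 0.14 in G10.

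Genes with the pattern most like TYR, TYRP1, PMEL and SLC24A5, whose group means spanned at least 2 log2 units, were found by the root mean square difference of values over the 16 arrays, each gene centred on its own mean. For TYR they were MLANA, itself a melanosome gene (0.48), the kinase gene SYK (0.60) and the homeobox gene HLX (0.61). For TYRP1 they were ENTPD1 (0.56), MARK1 (0.61) and ZDHHC2 (0.62). For PMEL they were CABLES1 (0.66), NNMT (0.76) and PCLO (0.78). For SLC24A5 they were PASD1 (0.56), NRIP3 (0.57) and CT55 (0.59). PASD1 had a mean of 3.75 in G10, against 8.03 in A7, 7.80 in PCDNA3 cells and 7.41 in A375 cells.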

How the data were processed

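Total RNA from 4 groups was labelled and measured on Affymetrix Human Gene 1.0 ST chips, 4 per group. The authors ran RMA in R (background correction, quantile normalization, probe summary) and deposited log2 intensities of 33297 transcript clusters, which were used unchanged. RMA shrinks low values towards background, so changes of dim genes are understated. The number of arrays limits the precision. Of the clusters, 19460 carried 1 gene symbol in the platform annotation, 1754 several and 12083 none, and genes were named only from the first kind.

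In R 4.3.3 with limma 3.58.1, lmFit was run with 1 mean per group, and eBayes moderated the variances. The authors also used limma with the average of both control lines. The procedure was tested on simulated data. Python 3.11.15, pandas 2.3.3 and matplotlib served for tables, promoter searches and plots, the last in version 3.10.9. Comparisons were A7 and G10 against control and against each control line, G10 against A7, and PCDNA3 against A375. Groups came from the sample titles, and all arrays were used.

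The genes, the 7 lists and the rules were chosen with earlier results of these data known. The rule named the 10 genes, CAT, MITF and SOX10. From each list it named up to 3 called genes, those that changed most, in A7, in G10 or between the clones, and for genes whose group means spanned at least 2 log2 units the 3 nearest genes. S100B was named after its values were seen, as a marker of the line, as were PTPRC, EPCAM, PECAM1, KRT18, CD68 and KDR. Promoters were those of RefSeq on GRCh38.p14.

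Alternatives were a further quantile normalization, subtraction of array medians, limma-trend, robust variances, array weights, only the arrays compared, only clusters above the unexpressed level, only clusters with 1 symbol, the mean of a gene's rows, a replicate block, treat with a limit of 1.5-fold, and leaving out each array in turn. They were run on the 9 measured genes. Leaving out G10 arrays 3 and 4 together was added after the data were seen.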

Additional observations from a re-analysis of the deposited data

Results flagged for a closer look

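GPR143, the receptor of the melanosome membrane, had 1 G10 array far from the others. G10 array 4 had 4.40 and the nearest of the others 4.79. Of 36 groups tested for such a gap, 1 passed, and chance gives about 1 in 20.

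The changes of 6 genes against the shared control differed between G10 and A7 by the limma test of the difference itself. The change in G10 minus that in A7 was -1.65 for TYR (adjusted p = 0.0486), -0.77 for TYRP1 (adjusted p = 0.0334), -5.04 for SLC24A5 (adjusted p = 1.28e-09), -0.92 for SLC45A2 (adjusted p = 7.66e-05), -0.78 for GPR143 (adjusted p = 0.000222) and -0.89 for RAB27A (adjusted p = 0.00108). Every G10 array lay below every A7 array in 5 of these genes, as in 8.48% of all clusters, and the exception was TYR. For SLC24A5, SLC45A2 and GPR143 the G10 means lay below the level of unexpressed genes, 5.18, so the differences are at least 3.80, 0.26 and 0.31 in size.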

How the results depend on the processing

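Limits: 4 arrays a group, 1 clone a line, and dim values near the unexpressed level. The number of genes called in A7 against control was 5, and 2 to 6 when single arrays were left out, with the lowest number without A7 array 2. Numbers under single omissions were 0 to 1 (main 1) for PCDNA3 against A375, 2 to 5 (main 5) for A7 against A375, and 3 to 5 (main 5) for G10 against PCDNA3. Other numbers moved by up to 1.5 times. With a limit of 1.5-fold in the test (treat), which asks for larger changes, 1 gene was called in A7 against control, 3 in G10 against control, 1 in G10 against A7, 0 in PCDNA3 against A375, 1 in A7 against A375, 1 in A7 against PCDNA3 and 1 in G10 against PCDNA3. The number for PCDNA3 against A375 was 0 with array medians subtracted, with robust variances and with only the arrays compared. The number for G10 against PCDNA3 was 3 with array weights and 1 with only the arrays compared. Without G10 arrays 3 and 4, 6 genes were called in A7 against PCDNA3 (8.64% of all clusters, against 4.72% with all arrays). In G10 against PCDNA3 3 were then called (21.5% of all clusters, against 15.5%). The G10 arrays enter the comparison of A7 with PCDNA3 only through the spread, which limma estimates over all 16 arrays. In G10 against PCDNA3 they also enter the group mean, and the part of each was not tested. Shares of all clusters under the other settings, the replicate block among them, are not given, so those numbers of genes have no share beside them.

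The replicate numbers did not pair the arrays. Deviations of arrays with the same number correlated at -0.16 to 0.23, 3 of 24 pairs passed 0.1, and 5 of 16 arrays correlated best with their own number. With the replicate block, 3 genes were called in A7 against control, 0 in PCDNA3 against A375 and 2 in A7 against A375.

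Signs changed only in values that were called in neither setting. Without G10 arrays 3 and 4, TYR was at -0.81 in G10 against control and -0.57 against A375, MLANA at -0.15 against control and -0.42 against PCDNA3, and OCA2 at 0.054 against PCDNA3. With array weights TYR was at -0.38 in G10 against control and -0.11 against A375, MLANA at -0.040 in G10 against PCDNA3, and RAB27A at 0.017 in PCDNA3 against A375. OCA2 in G10 against PCDNA3 was at 0.028 after quantile normalization and 0.014 with medians subtracted. When single arrays were left out, TYR in G10 ranged from -0.37 to 0.50 against control, from -0.12 to 0.75 against A375 and from -0.61 to 0.26 against PCDNA3. OCA2 ranged from -0.18 to 0.030 in G10 against A7, from -0.053 to 0.16 in A7 against PCDNA3 and from -0.081 to 0.047 in G10 against PCDNA3. In PCDNA3 against A375, GPR143 ranged from -0.025 to 0.098 and RAB27A from -0.14 to 0.095. SLC45A2 in G10 against A375 ranged from -0.045 to 0.068.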
